A study of Fragaria vesca with 24 samples.

Results

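Transcript accumulation was followed for 3 genes of the woodland strawberry, Fragaria vesca, that encode oxygenases: FvH4_2g16500, annotated as cytochrome P450 87A3-like, FvH4_2g12910, annotated as cytochrome P450 71A4-like, and FvH4_2g16430, annotated as probable flavin-containing monooxygenase 1 (FMO1). They are 3 of the 34006 genes in the count table and lie among the candidate genes of the study's freezing tolerance QTL on chromosome 2. They were selected on these data, by their differences between genotypes and their changes in the cold, so those values are given as a description without a test. The contrast of leaf with crown and the shares of the isoforms were not used in the choice, and they were tested. The choice did use values within each tissue, so the tissue tests are not fully independent of it.

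The plants were clones, rooted from runners, of 2 genotypes, the freezing-tolerant ‘Alta’ and the susceptible ‘NCGR1363’, which are grandparents of the study's mapping population. Crowns and leaves were taken from untreated plants grown at 20 °C (0 h) and from plants held at 2 °C for 42 d. This gave 8 groups of genotype, tissue and time with 3 biological replicates each, and 24 RNASeq libraries in all. Each genotype is a single clone, so a difference between the genotypes is a difference between those clones. Day length was shorter during the cold treatment than during growth before it. No library came from plants kept warm for the same time. A change in the cold therefore combines temperature, day length and plant age, and their separate parts were not tested. Words such as cold change and cold response name this whole treatment. The genotype tag of some ‘NCGR1363’ samples carries other numbers, and the titles were followed.

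Cytochrome P450s are heme enzymes of the endoplasmic reticulum that take electrons from a reductase and insert an oxygen atom into a substrate, and in plants they build and break down hormones and defence compounds. Members of the CYP71A family are known from specialised metabolism, and in rice CYP87A3 is known as an auxin-responsive gene. Flavin-containing monooxygenases do related chemistry with a flavin cofactor. In Arabidopsis FMO1 hydroxylates pipecolic acid, the step that yields the mobile signal of systemic acquired resistance, its YUCCA relatives make auxin from indole-3-pyruvate, and the FMO GS-OX enzymes oxidise glucosinolates.

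The libraries held between 12818719 and 18487934 counts. Levels are given as CPM, the gene's share of a library's counts scaled to a common library size with edgeR's TMM factors, and they are compared within a gene only. Replicates correlated with a Pearson's r of 0.952 to 0.997 on the log2(CPM + 0.5) scale (26266 genes), except for the library labelled ‘Alta’ crown 42 d replicate 3. Its r was 0.815 to 0.828 with the other replicates of its group and 0.987 to 0.993 with untreated ‘Alta’ leaves. These are correlations across genes, which are not independent replicates. The leaf marker FvH4_2g14190, a carbonic anhydrase 2-like gene, had 269 CPM in it and 0 counts in replicates 1 and 2, against 61.2 to 95.9 CPM in ‘Alta’ leaves at 0 h and 0.475 to 1.91 CPM at 42 d. The second leaf marker, the beta carbonic anhydrase 5 gene FvH4_2g11680, had 62.0 CPM in it and 34.8 and 28.2 CPM in replicates 1 and 2, against 42.5 to 50.1 CPM in ‘Alta’ leaves at 0 h and 28.3 to 45.2 CPM at 42 d. Both genes were thus low or overlapping in ‘Alta’ leaves at the time on the library's label, and they separated leaves from crowns of ‘Alta’ at 0 h. The library was kept under its label. Results that rest on it are given with it, and many of them also without it. In bulk tissue, fewer cells of a type and less RNA per cell cannot be told apart.

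FvH4_2g16500, the P450 87A3-like gene, was expressed in ‘NCGR1363’ and was at or near 0 in ‘Alta’. In ‘NCGR1363’ leaves at 0 h its levels were 77.3, 131 and 127 CPM, and at 42 d they were 27.1, 190 and 46.5 CPM. In ‘NCGR1363’ crowns they were 11.4, 15.5 and 12.3 CPM at 0 h and 8.07, 8.79 and 6.02 CPM at 42 d. All 6 leaf libraries lay above all 6 crown libraries of this genotype. In ‘Alta’ crowns at 0 h the 3 libraries had 6, 8 and 10 counts, or 0.330, 0.469 and 0.602 CPM. In ‘Alta’ crowns at 42 d replicate 1 had 8 counts, 0.543 CPM, and replicates 2 and 3 had 0. All 6 ‘Alta’ leaf libraries had 0 counts. There 3 counts, taken as an upper limit of counting error for a count of 0, would be 0.204 to 0.300 CPM. That limit leaves out the spread between plants. The highest ‘Alta’ library was thus below the lowest ‘NCGR1363’ library in either tissue.

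FvH4_2g12910, the P450 71A4-like gene, was higher in ‘Alta’ than in ‘NCGR1363’ within each tissue and time. In ‘Alta’ leaves it had 5.15, 5.10 and 3.88 CPM at 0 h and 14.0, 13.5 and 6.38 CPM at 42 d. In ‘Alta’ crowns it had 2.26, 2.52 and 2.35 CPM at 0 h and 7.94, 5.81 and 5.18 CPM at 42 d, the last being the library that resembled leaf. In both ‘Alta’ tissues the libraries at 42 d lay above those at 0 h without overlap. In ‘NCGR1363’ leaves it had 1.37, 1.94 and 2.06 CPM at 0 h and 2.63, 1.83 and 1.16 CPM at 42 d, and these ranges overlapped. In ‘NCGR1363’ crowns it had 5, 8 and 2 counts at 0 h, or 0.264, 0.443 and 0.114 CPM, and 0.724, 0.615 and 0.812 CPM at 42 d. At such counts a single read moves the ‘NCGR1363’ crown values visibly.

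FvH4_2g16430, the FMO1 gene, was a leaf transcript at 0 h that was also found in crowns after cold treatment. In ‘Alta’ leaves it had 24.1, 22.1 and 19.9 CPM at 0 h and 37.4, 22.2 and 40.4 CPM at 42 d. In ‘NCGR1363’ leaves it had 2.23, 1.48 and 4.64 CPM at 0 h and 22.1, 17.4 and 26.9 CPM at 42 d. Leaves of the genotypes therefore did not overlap at 0 h and overlapped at 42 d. In crowns at 0 h it had 2, 2 and 4 counts in ‘Alta’ and 3, 4 and 1 counts in ‘NCGR1363’, all at or below 0.241 CPM. After 42 d, crowns had 8.48, 2.51 and 18.5 CPM in ‘Alta’ and 1.76, 0.860 and 1.43 CPM in ‘NCGR1363’. The 18.5 CPM came from the library that resembled untreated ‘Alta’ leaves, whose own levels were 19.9 to 24.1 CPM, and the other ‘Alta’ crowns still lay above all ‘NCGR1363’ crowns.

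**Figure D1:**
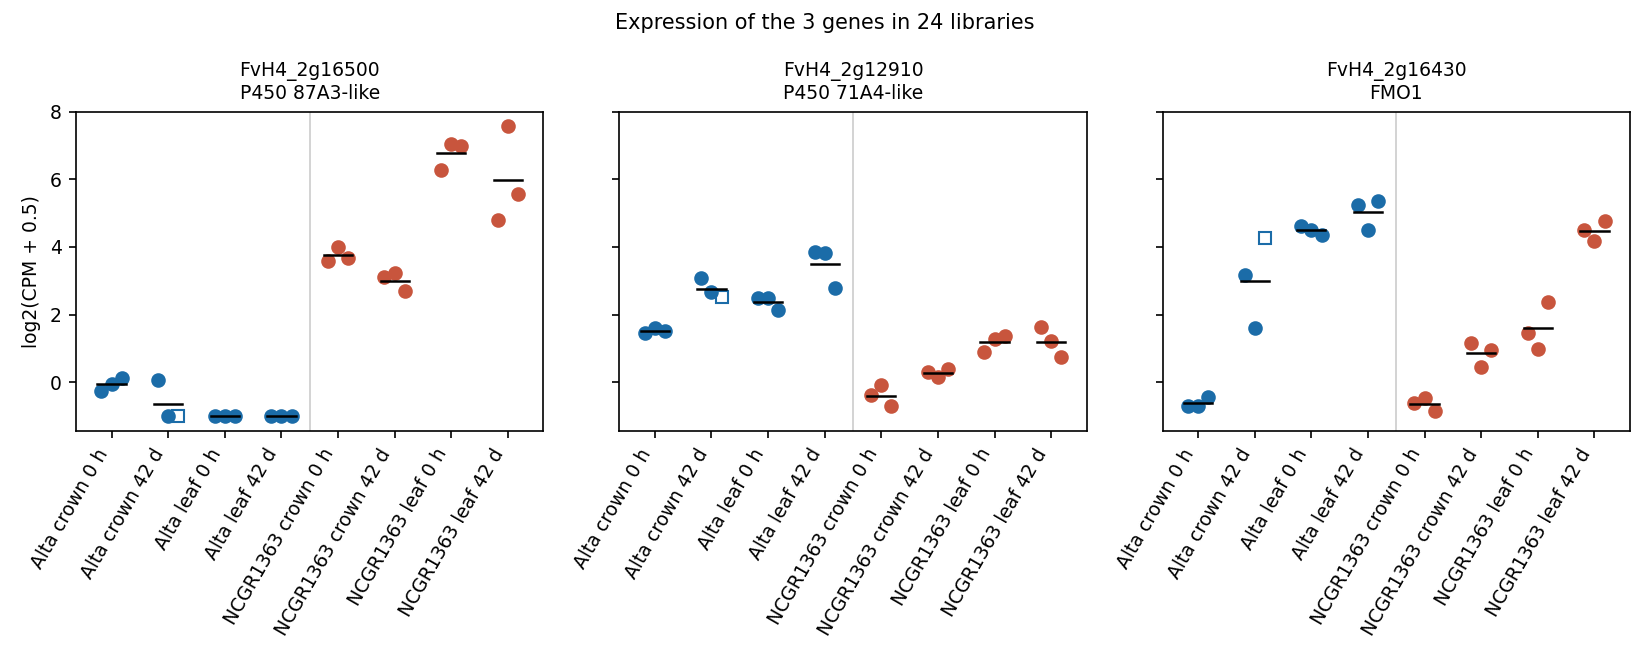
Expression of the 3 genes as log2(CPM + 0.5) on the vertical axis in each of the 24 libraries, by group (‘Alta’ blue, ‘NCGR1363’ red), with a bar at the mean of the 3 log values; the open square is the library labelled ‘Alta’ crown 42 d replicate 3. FvH4_2g16500 lies at the floor of the scale in all 6 ‘Alta’ leaf libraries, FvH4_2g12910 is higher in ‘Alta’, and FvH4_2g16430 is near the floor in the 6 untreated crowns.

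Ordered by mean ± SD over 3 libraries, FvH4_2g16500 ran from 112 ± 29.8 CPM in ‘NCGR1363’ leaves at 0 h through 87.8 ± 88.9 CPM in these leaves at 42 d to 13.1 ± 2.18 CPM in ‘NCGR1363’ crowns at 0 h and 7.62 ± 1.44 CPM at 42 d. ‘Alta’ crowns followed at 0.467 ± 0.136 CPM at 0 h and 0.181 ± 0.313 CPM at 42 d, which overlapped, and ‘Alta’ leaves were at 0. The ‘NCGR1363’ leaf levels at 0 h and 42 d overlapped, and the SD at 42 d was larger than the mean, since replicate 2 stood far above the others. FvH4_2g12910 ran from 11.3 ± 4.26 CPM in ‘Alta’ leaves at 42 d, through 6.31 ± 1.45 CPM in ‘Alta’ crowns at 42 d, 4.71 ± 0.718 CPM in ‘Alta’ leaves at 0 h and 2.38 ± 0.136 CPM in ‘Alta’ crowns at 0 h, to 1.88 ± 0.735 and 1.79 ± 0.373 CPM in ‘NCGR1363’ leaves at 42 d and 0 h. ‘NCGR1363’ crowns were lowest, with 0.717 ± 0.0988 CPM at 42 d and 0.274 ± 0.164 CPM at 0 h. Of its neighbours in that order, the 2 cold-treated ‘Alta’ tissues overlapped, as did untreated ‘Alta’ crowns with cold-treated ‘NCGR1363’ leaves, and the ‘NCGR1363’ leaves at both times. FvH4_2g16430 ran from 33.3 ± 9.75 CPM in ‘Alta’ leaves at 42 d, with 22.2 ± 4.76 CPM in ‘NCGR1363’ leaves at 42 d and 22.0 ± 2.09 CPM in ‘Alta’ leaves at 0 h overlapping each other, down to 0.156 ± 0.0735 and 0.146 ± 0.0828 CPM in untreated crowns of ‘Alta’ and ‘NCGR1363’, which also overlapped. Its ‘Alta’ crowns at 42 d averaged 9.85 ± 8.10 CPM, or 5.50 CPM without replicate 3, and their range overlapped that of untreated ‘NCGR1363’ leaves at 2.78 ± 1.65 CPM, which overlapped cold-treated ‘NCGR1363’ crowns at 1.35 ± 0.454 CPM.

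Leaves were compared with crowns within each genotype and time to ask in which tissue each gene was transcribed. In the 3 comparisons that do not hold the library resembling leaf, FvH4_2g12910 and FvH4_2g16430 were higher in leaves, and FvH4_2g16500 was higher in ‘NCGR1363’ leaves and at 0 in ‘Alta’ leaves. Each was tested with edgeR's quasi-likelihood F-test on 6 libraries, so that p-values measure the spread between plants of a clone, and the FDR is the Benjamini-Hochberg adjusted p over all genes tested. Tissue differences were common among all genes, so a call by itself does not set these genes apart. At an FDR of at most 0.05, 73.1% of tested genes were called in ‘Alta’ at 0 h, 65.7% in ‘NCGR1363’ at 0 h and 55.5% in ‘NCGR1363’ at 42 d.

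FvH4_2g16430 had a larger log2 difference between the tissues than FvH4_2g12910 in each comparison, a ranking that was not tested. In ‘Alta’ at 0 h its level in leaves exceeded that in crowns by a log2 difference of 7.16 (SE 0.23, edgeR FDR 8.8e-09), a 141-fold ratio of means that rests on 8 counts in the 3 crown libraries. In ‘NCGR1363’ the log2 difference was 4.23 at 0 h (SE 0.63, edgeR FDR 0.00076) and 4.05 at 42 d (SE 0.33, edgeR FDR 0.00014). In both comparisons all 3 leaf libraries lay above all 3 crown libraries. At 0 h FvH4_2g16430 passed the count minimum in both genotypes only through the leaves, so its FDRs at 0 h support nothing further.

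FvH4_2g16500 was higher in leaves than in crowns of ‘NCGR1363’, by a log2 difference of 3.16 at 0 h (SE 0.22, edgeR FDR 1.6e-05) and 3.52 at 42 d (SE 0.75, edgeR FDR 0.0081). Without ‘NCGR1363’ leaf 42 d replicate 2, the library with 190 CPM, the latter was 2.32 (SE 0.25, edgeR FDR 0.000134). In ‘Alta’ at 0 h all leaf libraries were at 0, and crowns, with 6, 8 and 10 counts, were at least 1.76-fold higher against 3 counts per library. The gene passed the count minimum there only through the crowns and was not tested without ‘Alta’ crown 0 h replicate 2 or 3, so its FDR of 0.0044 in edgeR supports nothing further. By their levels alone the tissues ranked in opposite directions in the genotypes at 0 h, near 0 in ‘Alta’, and the difference between the rankings was not tested.

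FvH4_2g12910 was higher in leaves by a log2 difference of 1.06 in ‘Alta’ at 0 h (SE 0.21, edgeR FDR 0.0015) and 2.73 in ‘NCGR1363’ at 0 h (SE 0.46, edgeR FDR 0.0014). In ‘NCGR1363’ at 42 d it was 1.40 (SE 0.39, edgeR FDR 0.022). That call was not stable: the log2 difference was 1.34 with an edgeR FDR of 0.056 when the replicate number was fitted as a block. The deviations of same-numbered libraries correlated at r values of 0.112, 0.373 and 0.212 there, the one comparison in which all 3 exceeded 0.1. The FDR was also 0.051 to 0.076 without ‘NCGR1363’ crown 42 d replicates 1, 2 or 3 or leaf 42 d replicate 1, each left out in turn. The ‘NCGR1363’ crowns at 0 h, with 2 to 8 counts, would not have passed the count minimum alone. The FDR of 0.0014 there therefore supports nothing further.

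In ‘Alta’ at 42 d, the comparison that holds the library resembling leaf, a single gene of 18756 tested was called by edgeR, 0.00533%, with 3396 genes at an unadjusted p under 0.05. DESeq2 called 2222 genes there, and edgeR called 44.8% of tested genes without that library. FvH4_2g16430 was higher in leaves by a log2 difference of 1.75 (SE 0.72, edgeR FDR 0.28), and by 2.62 without the library (SE 0.53, edgeR FDR 0.0073). For FvH4_2g12910 the log2 difference was 0.83 (SE 0.40, edgeR FDR 0.34) and 0.72 without the library (SE 0.39, edgeR FDR 0.17), so a tissue difference of this gene was not detectable after cold treatment of ‘Alta’. FvH4_2g16500 was below the count minimum there, with 8 counts in 6 libraries.

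**Figure D2:**
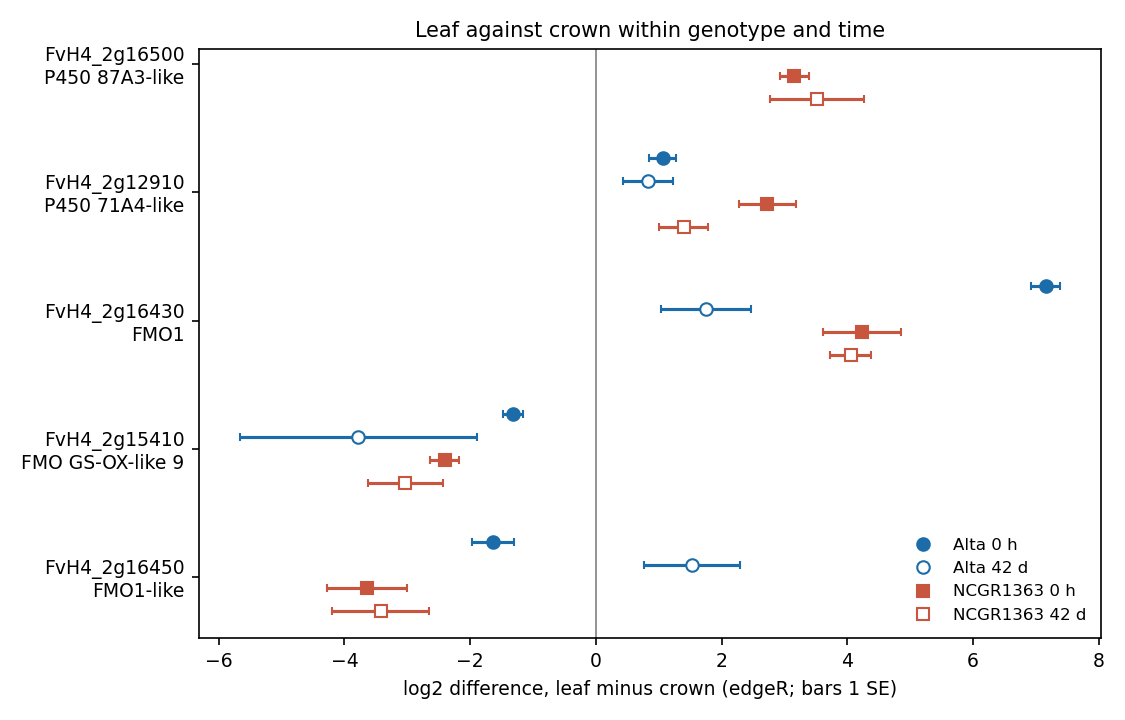
The log2 difference of leaf minus crown from edgeR, with bars of 1 SE, for the 3 genes and the other 2 flavin monooxygenase genes tested, in each genotype and time (6 libraries per point). FvH4_2g12910 and FvH4_2g16430 lie to the right of 0 in all 4 comparisons, FvH4_2g16500 is drawn for ‘NCGR1363’ only because all ‘Alta’ leaf libraries were at 0, and FvH4_2g15410 lies to the left of 0 throughout. The points of ‘Alta’ at 42 d include the library resembling leaf, without which FvH4_2g15410 was at -0.77 there.

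The other oxygenase genes of the same families in the QTL interval were examined beside them: 3 further cytochrome P450s annotated as CYP82D47 or CYP82D47-like (FvH4_2g18410, FvH4_2g18411 and FvH4_2g18420) and 6 further flavin monooxygenases (FvH4_2g14550, FvH4_2g15120, FvH4_2g15410, FvH4_2g16410, FvH4_2g16420 and FvH4_2g16450). Of these 9 genes, 5 had 0 counts in all 24 libraries: FvH4_2g18411, the YUCCA10-like FvH4_2g14550, the YUC4-like FvH4_2g15120, and the FMO1-like FvH4_2g16410 and FvH4_2g16420. FvH4_2g18410 had at most 0.847 CPM and passed no comparison's minimum. The remaining 3 genes were tested, and in each of the 3 comparisons without the library that resembled leaf all 3 were lower in leaves, the reverse of FvH4_2g12910 and FvH4_2g16430. With all 24 libraries in 1 fit, 2 of these calls were lost in ‘Alta’ at 0 h (edgeR FDR 0.197 for FvH4_2g15410 and 0.0589 for FvH4_2g16450).

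FvH4_2g18420, the CYP82D47 gene, was a crown transcript. It had 2.53, 3.34 and 2.71 CPM in ‘Alta’ crowns at 0 h, and 0 in all 3 ‘Alta’ leaves at 0 h, a difference of at least 10.8-fold (edgeR FDR 5.1e-05). In ‘NCGR1363’ crowns it had 3.75, 6.25 and 3.54 CPM at 0 h and 3.83, 6.64 and 3.01 CPM at 42 d, and 1 count in all 3 leaves together at each time. The ratios were at least 20.0-fold at 0 h (edgeR FDR 6.2e-05) and at least 21.8-fold at 42 d (edgeR FDR 0.00047). In each of these comparisons the gene passed the count minimum only through the crowns, so these FDRs support nothing beyond the bounds. In ‘Alta’ crowns at 42 d it had 2.17 and 5.25 CPM, and 0 in replicate 3, the value of untreated ‘Alta’ leaves.

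FvH4_2g15410, annotated as FMO GS-OX-like 9, was higher in crowns in the 3 comparisons without the library resembling leaf, and it fell in the cold. In ‘NCGR1363’ crowns it had 45.7, 44.0 and 48.2 CPM at 0 h and 10.1, 9.10 and 9.88 CPM at 42 d, a log2 change of -2.24 (SE 0.08, edgeR FDR 3.1e-08), which with all 24 libraries in 1 fit had an SE of 0.877 and an edgeR FDR of 0.0815. In ‘Alta’ leaves it had 10.5, 12.8 and 8.29 CPM at 0 h and 0.989, 0 and 0.339 CPM at 42 d, a log2 change of -4.51 (SE 0.66, edgeR FDR 0.00080). These leaves at 42 d would not have passed the count minimum alone, so the FDR of 0.00080 supports nothing further. In ‘NCGR1363’ leaves the log2 change was -2.80 (SE 0.68, edgeR FDR 0.025), with an FDR of 0.062 to 0.094 without leaf 0 h replicates 1, 2 or 3 or leaf 42 d replicate 3. In ‘Alta’ crowns it had 31.2, 25.5 and 26.1 CPM at 0 h and 1.42, 0.168 and 17.0 CPM at 42 d. The 17.0 CPM was the library resembling leaf. The log2 change was -2.14 with it (SE 1.41, edgeR FDR 0.37) and -5.18 without it (SE 0.54, edgeR FDR 0.00054). Without it, ‘Alta’ crowns at 42 d would not have passed the count minimum alone, so the FDR of 0.00054 supports nothing further. FvH4_2g16430, of the same enzyme family, had positive log2 changes in all 4 of these comparisons. The leaf minus crown log2 difference of FvH4_2g15410 was -1.31 in ‘Alta’ at 0 h (SE 0.15, edgeR FDR 5.6e-05), -2.41 in ‘NCGR1363’ at 0 h (SE 0.23, edgeR FDR 7.2e-05) and -3.03 in ‘NCGR1363’ at 42 d (SE 0.59, edgeR FDR 0.0057). In ‘Alta’ at 42 d its mean was 6.21 CPM in crowns and 0.443 CPM in leaves. Without the library resembling leaf the crown mean was 0.796 CPM. The libraries of the tissues overlapped with and without it.

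FvH4_2g16450, a second FMO1-like gene, follows FvH4_2g16430 in the order of the gene IDs, but its tissue pattern differed from that of FvH4_2g16430. In untreated ‘Alta’ it had 3.25, 2.35 and 3.01 CPM in crowns and 1.15, 0.900 and 0.529 CPM in leaves, a leaf minus crown log2 difference of -1.64 (SE 0.33, edgeR FDR 0.0017). In ‘NCGR1363’ this difference was -3.64 at 0 h (SE 0.64, edgeR FDR 0.0018) and -3.42 at 42 d (SE 0.77, edgeR FDR 0.0097). There the gene passed the count minimum only through the crowns, so the ‘NCGR1363’ FDRs support nothing further. In ‘Alta’ leaves it rose to 6.50, 3.90 and 3.33 CPM at 42 d, a log2 change of 2.39 (SE 0.41, edgeR FDR 0.0018), whereas all 3 ‘NCGR1363’ leaves at 42 d were at or below 0.810 CPM. The log2 difference between genotypes in leaves at 42 d was -3.35 (SE 0.87) with an edgeR FDR of 0.0498, which was 0.064 to 0.17 when ‘Alta’ leaf 42 d replicate 1, 2 or 3 or ‘NCGR1363’ leaf 42 d replicate 1 or 3 was left out. In that comparison the gene passed the count minimum only through ‘Alta’, so the FDR of 0.0498 supports nothing further. With this order of IDs and the shared annotation, reads of FvH4_2g16430 and its relatives could be divided by the estimation of counts, and their part in each value was not tested.

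As a list, the 3 tested genes of the other 9 had a median leaf minus crown log2 difference of -1.64 in ‘Alta’ at 0 h, -3.64 in ‘NCGR1363’ at 0 h and -3.42 in ‘NCGR1363’ at 42 d, and the values were the same with FvH4_2g18420 at its bound. The medians over all genes tested were -0.02, -0.04 and -0.0032. In ‘Alta’ at 42 d none of the 3 was called by edgeR, with 1 at an unadjusted p under 0.05, FvH4_2g18420, which was called without replicate 3 (edgeR FDR 0.0012) and by DESeq2 (adjusted p 0.037). There too FvH4_2g18420 passed the count minimum only through the crowns.

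The differences between the genotypes, which chose the genes, were as follows. FvH4_2g16500 was higher in ‘NCGR1363’ by a log2 difference of 4.78 in crowns at 0 h (SE 0.23), a 28.0-fold ratio of means. In leaves the ratio was at least 421-fold at 0 h and at least 402-fold at 42 d, against 3 counts per library in ‘Alta’. The second bound was 169-fold without ‘NCGR1363’ leaf 42 d replicate 2. In crowns at 42 d the log2 difference was 5.30 (SE 1.29), or 4.88 (SE 0.72) without the library resembling leaf. The ‘Alta’ value there rests on the 8 counts of replicate 1.

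FvH4_2g12910 was lower in ‘NCGR1363’, by a log2 difference of -3.09 in crowns at 0 h (SE 0.37), -1.39 in leaves at 0 h (SE 0.27), -3.14 in crowns at 42 d (SE 0.33) and -2.64 in leaves at 42 d (SE 0.45). In crowns at 42 d it was -3.24 without the library resembling leaf. FvH4_2g16430 was lower in ‘NCGR1363’ leaves at 0 h by a log2 difference of -2.99 (SE 0.36) and in crowns at 42 d by -2.88 (SE 0.79), or -2.003 (SE 0.55) without that library. In leaves at 42 d the log2 difference was -0.63 (SE 0.28), and in crowns at 0 h the gene was below the count minimum. Over all genes, 63.2% of those tested were called between the genotypes in crowns at 0 h, 18.7% in leaves at 0 h, 5.00% in crowns at 42 d (49.9% without the library resembling leaf) and 15.2% in leaves at 42 d.

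Of the other family genes, FvH4_2g15410 and FvH4_2g18420 were higher in ‘NCGR1363’ crowns at 0 h, by log2 differences of 0.72 (SE 0.09, edgeR FDR 4.5e-05) and 0.64 (SE 0.25, edgeR FDR 0.042). With all 24 libraries in 1 fit neither was called (edgeR FDR 0.569 and 0.565). The second had an FDR of 0.11 to 0.18 without ‘Alta’ crown 0 h replicate 1 or 3 or ‘NCGR1363’ crown 0 h replicate 2. In crowns at 42 d, where FvH4_2g15410 had 10.1, 9.10 and 9.88 CPM in ‘NCGR1363’, its log2 difference was 0.62 (SE 1.37, edgeR FDR 0.81) and 3.66 without the library resembling leaf (SE 0.59, edgeR FDR 0.0031). Without that library the ‘Alta’ crowns would not have passed the count minimum alone, so the FDR of 0.0031 supports nothing further.

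The changes over 42 d at 2 °C were also used in the choice and are described only. Each combines temperature with day length and plant age. FvH4_2g16430 had a log2 change of 5.93 in ‘Alta’ crowns (SE 0.95), or of 5.09 without the library resembling leaf (SE 0.72), of 3.16 in ‘NCGR1363’ crowns (SE 0.50) and of 3.03 in ‘NCGR1363’ leaves (SE 0.44). In ‘Alta’ leaves, where it was already at 19.9 to 24.1 CPM, the log2 change was 0.60 (SE 0.22). The levels of the genotypes in leaves thus lay apart at 0 h and overlapped at 42 d.

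FvH4_2g12910 changed by 1.42 on the log2 scale in ‘Alta’ crowns (SE 0.28), 1.37 in ‘NCGR1363’ crowns (SE 0.47), 1.26 in ‘Alta’ leaves (SE 0.32) and 0.09 in ‘NCGR1363’ leaves (SE 0.40). FvH4_2g16500 had a log2 change of -0.78 in ‘NCGR1363’ crowns (SE 0.17) and -0.36 in ‘NCGR1363’ leaves (SE 0.68). The latter was -1.53 (SE 0.32) without ‘NCGR1363’ leaf 42 d replicate 2. In ‘Alta’ crowns its log2 change was -1.29 (SE 1.27), -0.86 without the library resembling leaf and -5.92 without replicate 1, the only one with counts. Over all genes, cold treatment was called for 7.67% of tested genes in ‘Alta’ crowns (57.7% without that library), 58.9% in ‘NCGR1363’ crowns, 55.8% in ‘Alta’ leaves and 31.4% in ‘NCGR1363’ leaves.

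**Figure D3:**
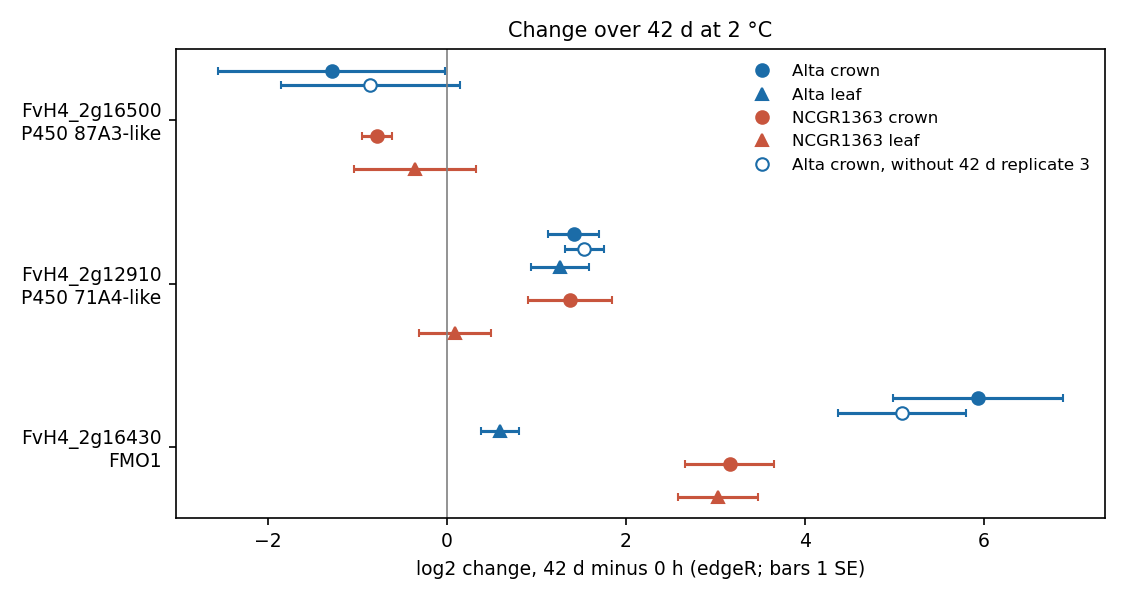
The log2 change from 0 h to 42 d at 2 °C from edgeR, with bars of 1 SE, for the 3 genes in crowns (circles) and leaves (triangles) of ‘Alta’ (blue) and ‘NCGR1363’ (red); open circles leave out ‘Alta’ crown 42 d replicate 3. FvH4_2g16430 lies between 0.60 and 5.93, and FvH4_2g16500, which has no ‘Alta’ leaf value, lies below 0.

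The difference between the genotypes in their log2 change over 42 d, ‘NCGR1363’ less ‘Alta’, was fitted on the 12 libraries of a tissue. For FvH4_2g16430 it was 2.46 on the log2 scale in leaves (SE 0.49) and -2.80 in crowns (SE 1.16). By these values, which were not tested, the log2 change was larger in ‘NCGR1363’ leaves and in ‘Alta’ crowns. The untreated crowns of each genotype held only 8 counts of this gene in all. Without the library resembling leaf the crown value was -1.92 (SE 1.14). For FvH4_2g12910 it was -1.15 in leaves (SE 0.52) and -0.06 in crowns (SE 0.83). For FvH4_2g16500 it was 0.51 in crowns (SE 1.07), but between -0.18 and 5.26 when ‘Alta’ crown 42 d replicate 2 or 1 was left out, and no value can be given in leaves because ‘Alta’ was at 0. This term was called for 6.41% of tested genes in crowns (35.9% without that library) and 17.7% in leaves. Of the other family genes, FvH4_2g15410 had a value in crowns of -0.11 (SE 1.41, edgeR FDR 0.99), and of 2.96 without the library resembling leaf (SE 0.45, edgeR FDR 0.00040). Without that library the cold-treated ‘Alta’ crowns would not have passed the count minimum alone, so the FDR of 0.00040 supports nothing further.

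The deposited isoform table divides the counts of FvH4_2g16500 between 2 transcripts. According to the transcript labels, t1 has a coding sequence of 1449 bases (483 codons) and t2, with the same start, has one of 1536 bases (512 codons), which is 87 bases longer. Over all libraries t1 had 8304 counts and t2 had 787. The share of t2 in ‘NCGR1363’ leaves was 8.27%, 8.66% and 10.5% at 0 h and 8.98%, 9.13% and 7.99% at 42 d. In ‘NCGR1363’ crowns it was 5.09%, 4.63% and 2.79% at 0 h, and 0%, 5.59% and 24.6% at 42 d. The leaf shares were close to each other, and the crown shares at 42 d were not: the 95% Wilson interval was 17.9% to 32.8% in replicate 3, and 0% to 2.40% in replicate 1 with its 0 of 156 counts. These intervals cover counting error only.

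Leaf minus crown, the t2 share differed by 1.81 percentage points (8.93% in leaves and 7.12% in crowns, 6 libraries each, exact two-sided permutation test within times, p = 0.76, adjusted p = 0.85 over 11 isoform comparisons, smallest possible p 0.005). Single crown libraries decided this value: it was 5.44 percentage points without ‘NCGR1363’ crown 42 d replicate 3 (exact permutation test, unadjusted p = 0.005), the library with 24.6%, and -0.71 without ‘NCGR1363’ crown 42 d replicate 1 (p = 0.965 in the same exact test). With all libraries a difference in the t2 share between tissues was not detectable. In ‘Alta’ no library had the 20 isoform counts that were required.

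FvH4_2g12910 has 5 transcripts with a coding sequence of the same length, 1626 bases (542 codons), and with between 291 and 1304 bases before it. Over all libraries t1 had 566 counts, t4 had 239, t2 had 230, t3 had 174 and t5 had 19. In single libraries the share of t1 ran from 0% to 95.3%, with 21 to 198 isoform counts behind each share. In ‘NCGR1363’ leaves at 42 d, t4 held 79.5%, 86.4% and 47.6% of the counts, while in ‘Alta’ leaves at 42 d it held 0%, 0% and 20.2%. Over both times t4 held 49.0% in ‘NCGR1363’ leaves and 13.8% in ‘Alta’ leaves, a difference of 35.2 percentage points (6 libraries each, exact two-sided permutation test within times, p = 0.055, adjusted p = 0.45). At 0 h the t4 shares of the genotypes overlapped, with 0%, 64.0% and 16.7% in ‘NCGR1363’ and 3.03%, 34.6% and 25.0% in ‘Alta’. None of the 11 isoform comparisons had an unadjusted p under 0.05 in the exact permutation test, but 1 library decided that for some: the t4 difference was 41.9 percentage points without ‘NCGR1363’ leaf 0 h replicate 1 (exact permutation test, unadjusted p = 0.025). FvH4_2g16430 has a single transcript with a coding sequence of 1560 bases (520 codons).

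**Figure D4:**
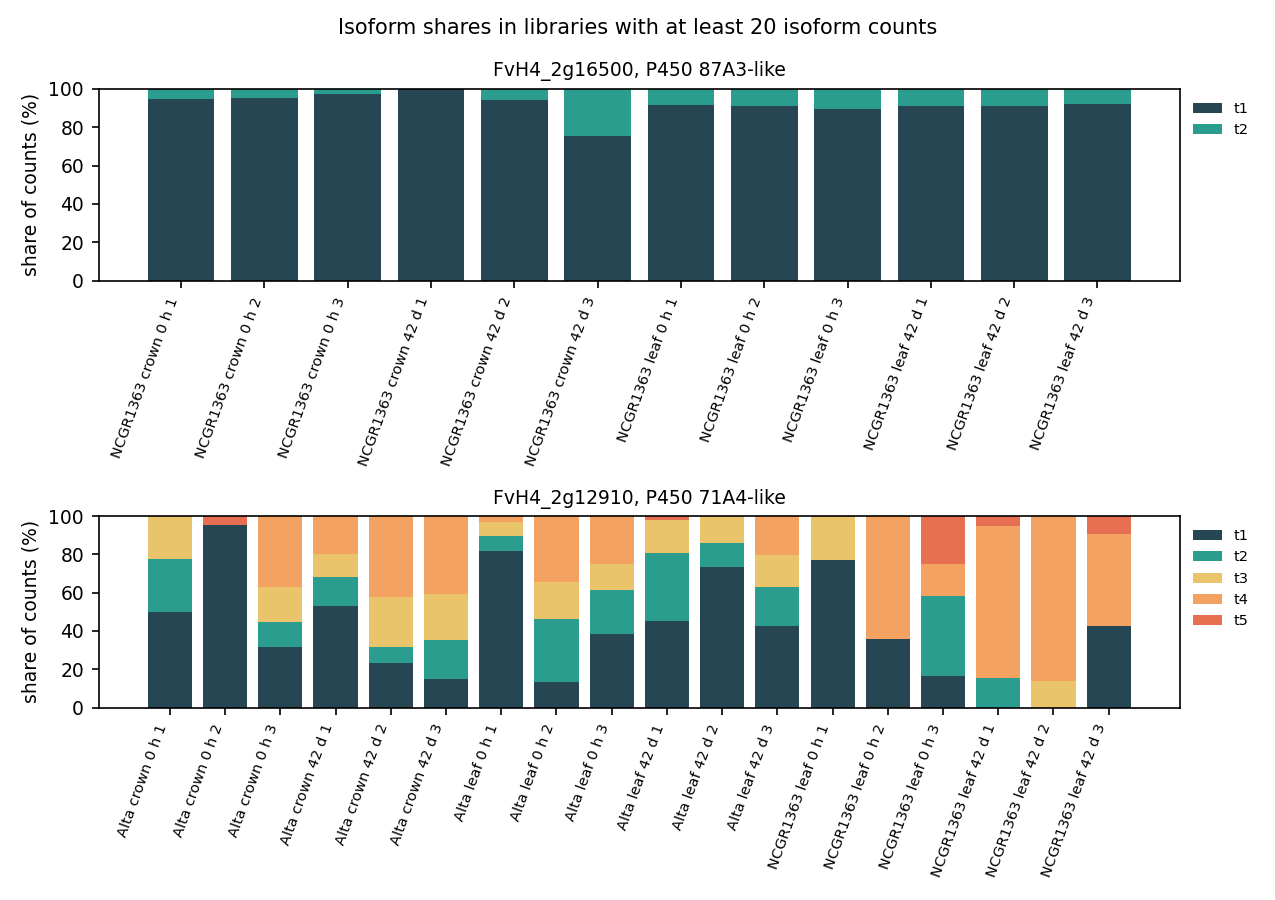
Share of a gene's isoform counts held by each transcript, in percent on the vertical axis, in every library with at least 20 isoform counts, for FvH4_2g16500 (12 ‘NCGR1363’ libraries) and FvH4_2g12910 (18 libraries). In FvH4_2g16500 the t2 share is 7.99% to 10.5% in leaves and 0% to 24.6% in crowns, and in FvH4_2g12910 the shares vary between replicates of a group.

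The genes that stand beside the 3 in the order of the IDs were read for comparison, 3 on each side and 16 different genes in all. Of these, 7 had 0 counts in all libraries, and 7 were tested in at least 1 comparison. The nearest expressed neighbours of FvH4_2g16500, the isocitrate dehydrogenase gene FvH4_2g16520 and the SLY1 gene FvH4_2g16530, had genotype log2 differences in leaves at 0 h of -0.32 and -0.36, where FvH4_2g16500 differed by at least 421-fold. FvH4_2g12900, an uncharacterized gene beside FvH4_2g12910, was higher in leaves at 0 h by log2 differences of 3.01 in ‘Alta’ and 2.88 in ‘NCGR1363’ (edgeR FDR 4.4e-08 and 4.6e-06). FvH4_2g12920, the uncharacterized gene on the other side, was lower in leaves at 0 h, by -0.59 in ‘Alta’ and -0.60 in ‘NCGR1363’ (edgeR FDR 0.00068 and 0.00067). Of the 7 tested neighbours, 3 were called higher and 4 lower in leaves of ‘Alta’ at 0 h, and 2 higher and 5 lower in leaves of ‘NCGR1363’ at 0 h. Calls were common among all tested genes, at 73.1% in ‘Alta’ (6955 higher and 7166 lower) and 65.7% in ‘NCGR1363’ (6390 higher and 6299 lower). These counts therefore do not set the neighbours apart. FvH4_2g16390, a MATE efflux gene beside FvH4_2g16430, rose in the cold in leaves by 1.27 in ‘Alta’ and by 2.00 in ‘NCGR1363’ on the log2 scale (edgeR FDR 9.2e-05 and 0.0044).

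The genes with the most similar pattern over the 24 libraries, by Pearson's r of log2(CPM + 0.5), were sought among 17923 genes with a mean of at least 1 CPM and among 455 such genes of the QTL interval. The libraries fall into 8 groups, so r is a description of shared group levels. Among interval genes FvH4_2g16500 was closest to the serine/threonine-protein kinase gene FvH4_2g12540 (r 0.923), which had 111 ± 7.86 CPM in untreated ‘NCGR1363’ leaves and 21.0 ± 4.43 CPM in untreated ‘Alta’ leaves. FvH4_2g17400, a disease resistance protein-like gene (r 0.872), and FvH4_2g12080, without a description (r 0.865), came next. FvH4_2g12910 was closest to FvH4_2g14570, a pathogen-related protein-like gene (r 0.865), FvH4_2g12040, a splicing factor 3A subunit 3-like gene (r 0.853), and FvH4_2g18380, a histidine-rich protein gene (r 0.842). FvH4_2g16430 was closest to FvH4_2g12900 (r 0.921), the neighbour of FvH4_2g12910, to FvH4_2g11660 (r 0.920), whose product EXECUTER 1 takes part in singlet oxygen signalling of chloroplasts in Arabidopsis, and to the glutamate-tRNA ligase gene FvH4_2g14910 (r 0.913). Over all genes the closest were FvH4_1g28600 to FvH4_2g16500 (r 0.982), FvH4_4g19751 to FvH4_2g12910 (r 0.952) and FvH4_7g17690 to FvH4_2g16430 (r 0.957), for which the sources used here pair no name.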

How the data were processed

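Total RNA of 24 crown and leaf samples was sequenced from strand-specific libraries. RSEM and Bowtie2 were run by the authors against mRNAs predicted from the strawberry genome, and the resulting expected counts of 34006 genes and 64597 isoforms were deposited. These estimated counts were whole numbers as deposited, without normalization. Reads shared by similar genes or isoforms are divided by that estimation. Groups and replicate numbers came from sample titles. Totals were 12818719 to 18487934 counts per library.

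Comparisons used edgeR 4.0.16 in R 4.3.3: TMM, legacy quasi-likelihood F-test, a minimum of 0.5 CPM that 2 or more of the compared libraries had to reach, and Benjamini-Hochberg adjustment across every tested gene, on 6 libraries per comparison (12 for the genotype by cold term). SE is the log2 value over the root of F. A group with at most 3 counts in every library is given as a bound against 3 counts per library. Isoform shares used libraries with at least 20 isoform counts and exact permutation of libraries within times (scipy 1.17.1). The edgeR step was tested on simulated counts of 1 comparison, leaf minus crown in ‘NCGR1363’ at 0 h. It called all 200 changed genes and 8 unchanged genes. The bounds, the isoform test and the genotype by cold term were not simulated. Alternatives were DESeq2 1.42.0, its size factors, 2 other filters, all 24 libraries in 1 fit, CPM without TMM, a minimum of 50 isoform counts, Spearman's rho, the replicate number as a block, and each library left out.

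The members and lists were chosen with earlier results of these data known. The genes named were the 3 members, the interval's cytochrome P450s and flavin monooxygenases, the 3 genes on each side of a member by ID, 2 leaf markers, and for each member the 3 most similar genes of the interval and of the whole table. Gene descriptions came from the study's list of interval genes. Of the count table's IDs, 0 matched the RefSeq table, so no other names, sequences or positions were used here.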

Additional observations from a re-analysis of the deposited data

Results flagged for a closer look

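FvH4_2g16500 had its tissues in opposite order in the genotypes at 0 h: the mean was 0.467 CPM in ‘Alta’ crowns and 0 CPM in ‘Alta’ leaves, against 13.1 CPM in ‘NCGR1363’ crowns and 112 CPM in ‘NCGR1363’ leaves, with no overlap of libraries in either genotype. The difference between the genotypes in this ranking was not tested. FvH4_2g16450 had its tissues in opposite order at 42 d, with 1.56 CPM in ‘Alta’ crowns, 4.58 CPM in ‘Alta’ leaves, 5.07 CPM in ‘NCGR1363’ crowns and 0.436 CPM in ‘NCGR1363’ leaves. In ‘Alta’ the highest crown library (3.32 CPM) and the lowest leaf library (3.33 CPM) almost met, and the leaf minus crown log2 difference of 1.53 there was not called (edgeR FDR 0.36). The difference between the genotypes in this ranking was not tested either.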

How the results depend on the processing

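The member results not named here kept their direction and their side of the threshold under the alternatives that gave a value. FvH4_2g16500 in ‘Alta’ at 0 h was not tested between tissues without crown 0 h replicate 2 or 3. The cause of the values that moved was not tested. Low counts limit FvH4_2g16500 in ‘Alta’, FvH4_2g12910 in untreated ‘NCGR1363’ crowns and FvH4_2g16430 in untreated crowns of both genotypes. There a few reads set the value.

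With DESeq2, called genes numbered 2222 for leaf against crown in ‘Alta’ at 42 d, 3550 and 4498 between genotypes at 42 d in crowns and leaves, 4444 for cold in ‘Alta’ crowns and 2888 for the genotype by cold term in crowns, where edgeR called 1, 957, 2828, 1465 and 1281. With no filter on low counts, 2 genes were called for tissue in ‘Alta’ at 42 d. With all 24 libraries in 1 fit the counts were 5508 for tissue in ‘Alta’ at 42 d, 4796, 1807 and 6693 between genotypes in crowns at 0 h, leaves at 0 h and crowns at 42 d, 7874 and 3663 for cold in ‘Alta’ and ‘NCGR1363’ crowns, and 1946 and 1076 for the genotype by cold term in crowns and leaves. In that fit FvH4_2g16430 had a leaf minus crown log2 difference of 1.77 in ‘Alta’ at 42 d (edgeR FDR 0.015), and the cold change of FvH4_2g16450 in ‘NCGR1363’ crowns, 0.51 with an edgeR FDR of 0.039 on 6 libraries, had an FDR of 0.614. Without TMM factors FvH4_2g16500 was at least 2.67-fold higher in untreated ‘Alta’ crowns than leaves. By Spearman's rho, 0 of the 3 genes most like FvH4_2g16500 or FvH4_2g16430 over the whole table were shared with those by Pearson's r.

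With the replicate number as a block, 0 genes were called for tissue in ‘Alta’ at 42 d, between genotypes in crowns at 42 d, and for cold in ‘Alta’ crowns, and 601 between genotypes in leaves at 0 h. The block gave FvH4_2g12910 a leaf minus crown value of 1.34 in ‘NCGR1363’ at 42 d, FvH4_2g16500 6.01 between genotypes in crowns at 42 d and -2.03 for cold in ‘Alta’ crowns, and FvH4_2g15410 0.61 for the genotype by cold term in crowns, each on the log2 scale. The titles do not say whether same-numbered libraries share more than the number. For leaf minus crown in ‘NCGR1363’ at 42 d their deviations correlated at 0.112, 0.373 and 0.212, and replicate 1 reached 0.355 with another number. For 42 d minus 0 h in ‘NCGR1363’ leaves the r values were 0.606, 0.552 and -0.321.

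When single libraries were left out, the number of called genes ranged from 0 to 8324 for tissue in ‘Alta’ at 42 d, 1272 to 6228, 0 to 9452 and 570 to 5512 between genotypes in leaves at 0 h, crowns at 42 d and leaves at 42 d, 31 to 10942 and 2673 to 7487 for cold in ‘Alta’ crowns and ‘NCGR1363’ leaves, and 697 to 7148 and 1980 to 5594 for the genotype by cold term in crowns and leaves. Log2 values of FvH4_2g12910 ranged from 1.04 to 1.66 for tissue in ‘NCGR1363’ at 42 d, -3.59 to -2.74 between genotypes in crowns at 0 h, 1.03 to 1.88 for cold in ‘NCGR1363’ crowns, and -0.41 to 0.45 for the genotype by cold term in crowns. Those of FvH4_2g16430 ranged from 1.29 to 2.62 for tissue in ‘Alta’ at 42 d, -3.53 to -2.69 between genotypes in leaves at 0 h, 2.81 to 3.56 for cold in ‘NCGR1363’ crowns, and -3.27 to -1.92 and 2.16 to 2.99 for the genotype by cold term in crowns and leaves. Those of FvH4_2g16500 ranged from 4.58 to 5.00 and 4.64 to 10.01 between genotypes in crowns at 0 h and 42 d, -5.92 to -0.62 and -1.53 to 0.064 for cold in ‘Alta’ crowns and ‘NCGR1363’ leaves, and -0.18 to 5.26 for the genotype by cold term in crowns. Isoform share differences, in percentage points, ranged from -0.71 to 5.44 for t2 of FvH4_2g16500. For FvH4_2g12910 they ranged from -4.69 to 13.7 for t1 and -0.83 to 0.34 for t5 between ‘Alta’ tissues, and from -19.3 to -8.84 for t2, -12.5 to -6.84 for t3, 25.9 to 41.9 for t4 and 2.11 to 8.36 for t5 between genotypes.

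Of the other family genes, log2 values of FvH4_2g18420 ranged from -1.32 to 0.40 and from -0.40 to 0.28 for cold in ‘Alta’ and ‘NCGR1363’ crowns and from -0.41 to 1.29 for the genotype by cold term, and none of these was called by edgeR. Its sign turned for cold without ‘Alta’ crown 42 d replicate 3 (0.40), ‘NCGR1363’ crown 0 h replicate 2 (0.28) and ‘NCGR1363’ crown 42 d replicates 1 and 3 (0.08 and 0.20), and for the term without ‘Alta’ crown 42 d replicate 3 (-0.41) and ‘NCGR1363’ crown 42 d replicate 2 (-0.22). The genotype by cold term ranged from -0.70 to 2.96 for FvH4_2g15410 in crowns, the latter without ‘Alta’ crown 42 d replicate 3, and from -2.27 to 0.030 for FvH4_2g16450 in leaves, the latter without ‘NCGR1363’ leaf 0 h replicate 1.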
